A study of Mus musculus with 4 samples.

Results

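The genes of hyaluronan production, crosslinking and recognition were followed as 5 members of the 32285 genes counted: the synthases Has1 and Has2, the matrix crosslinkers Ptx3 and Tnfaip6, and the receptor Cd44. They were chosen by symbol, as genes of 1 matrix system, and each matched 1 row of the count matrices. Hyaluronan is a long, unbranched sugar polymer that synthases in the plasma membrane extrude into the space around cells. Tnfaip6 (TSG-6) moves heavy chains of inter-alpha-inhibitor onto the polymer, and the pentraxin Ptx3 ties such decorated chains into a network. Cd44 is the main receptor by which leukocytes and stromal cells hold on to hyaluronan. In injured skeletal muscle the polymer is laid down mostly by fibroblast-like cells of the interstitium, and muscle stem cells and invading leukocytes also meet it there.

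The counts came from droplet single-cell RNA-seq (10x Genomics 3′ v3.1 chemistry) of mononuclear cells from skeletal muscle. Mice were 14 weeks old and of 2 genotypes, mdx5cv and mdx5cv/Ccr2-/-, and quadriceps and diaphragm of each gave 4 groups with 1 library per group. mdx5cv is a dystrophin-deficient strain used as a model of Duchenne muscular dystrophy, so that all 4 groups were dystrophic and none was healthy muscle. Ccr2 is the receptor for Ccl2 and Ccl7 that brings monocytes out of the blood. The number of animals per library and the extent of the Ccr2 deletion are not given in sources used here.

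With 1 library per group no difference between groups could be tested, and none has a replicate check. Intervals below are exact 95% intervals (Poisson for counts, Clopper-Pearson for shares, conditional binomial for ratios) and cover counting error only. A level is the gene's unique molecular identifiers (UMIs) per 1000000 UMIs of its cell class in that library (CPM), and a ratio is called past the fold when it was at least 1.5 or at most its reciprocal. The filtered libraries held 4965 to 11193 cells, with medians of 5857 to 8962 UMIs per cell, and pairs of libraries shared 9 to 30 of their deposited barcodes. Ccr2 stood at 253 CPM of all cells in mdx5cv quadriceps and 137 CPM in mdx5cv diaphragm, and at 15.5 and 8.55 CPM in the mdx5cv/Ccr2-/- libraries, so that the targeted transcript went with the labels. In monocyte-like cells, defined below, it stood at 1204 CPM in mdx5cv quadriceps and 1046 CPM in mdx5cv diaphragm. In the mdx5cv/Ccr2-/- libraries these cells still held 268 CPM (24 UMIs in 15 cells) and 364 CPM (23 UMIs in 7 cells). The all-cell levels thus join the level per cell with the number of such cells. Reads near the 3′ end may lie outside the deleted stretch. Cells were classed by marker UMIs alone, and a class is therefore called "like" its type. Between 6.68% and 11.7% of cells per library met no class.

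Most of the account concerns cells like fibro/adipogenic progenitors (FAPs) and fibroblasts, the collagen-producing cells between muscle fibres. In quadriceps there were 989 of them in the mdx5cv and 1335 in the mdx5cv/Ccr2-/- library, with median depths of 13456 and 13439 UMIs. In diaphragm there were 6329 and 3687, with medians of 6385 and 10017 UMIs, so that the quadriceps libraries were alike in depth and the diaphragm libraries were not. All of their 6 stromal markers were detected in each library. The gate itself used these markers and those of the other classes. The sums that follow are therefore partly set by the gate and do not test its purity. Macrophage markers summed to 26.6 to 49.8 CPM there, and endothelial markers to 15.3 to 20.1 CPM, against 23531 to 35320 CPM for the stromal list. Mural markers summed to 217 CPM in mdx5cv/Ccr2-/- quadriceps and to 103 to 109 CPM in the other 3 libraries. Mesothelial markers summed to at most 1.58 CPM in quadriceps and to 28.7 and 29.7 CPM in diaphragm, so that they went with the muscle contrast, and no cell of the class had 3 of them. The part of these markers in the results was not tested.

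Has1 lies on mouse chromosome 17 at 17843323-17855205 (GRCm38, minus strand), Has2 on chromosome 15 at 56665627-56694539 (minus), Ptx3 on chromosome 3 at 66219910-66225805 (plus), Tnfaip6 on chromosome 2 at 52038009-52056686 (plus) and Cd44 on chromosome 2 at 102811141-102901665 (minus). Ptx3 sits within Veph1 and the start of Has2 overlaps Has2os, each on the opposite strand. No source used here says whether strand entered the counting. Veph1 had 0 to 7 UMIs per library. Has2os had 160, 197, 573 and 464 UMIs in FAP/fibroblast-like cells (10.1, 9.85, 12.1 and 11.3 CPM), a level that varied less over the libraries than that of Has2 given below. The bases before the starts of Has1, Tnfaip6 and Ptx3 are shown because Has1 and Ptx3 carry the genotype differences past the fold described below. Tnfaip6 was detected in a larger share of cells with Has1 than of those without. They are RefSeq promoter windows of GRCm38.p6, which matched 4 of the 5 members by symbol, all but Has2, and only bases before the annotated transcripts are printed, 5′ to 3′ on the gene's strand. The spans are chr17:17855206-17855438 (minus strand) for Has1, chr2:52037863-52038008 (plus) for Tnfaip6 and chr3:66219637-66219886 (plus) for Ptx3. Capitals mark a match to TGACGTCA, the cyclic AMP response element, in Has1 and to TGANTCA, the AP-1 element, in Tnfaip6.
Has1: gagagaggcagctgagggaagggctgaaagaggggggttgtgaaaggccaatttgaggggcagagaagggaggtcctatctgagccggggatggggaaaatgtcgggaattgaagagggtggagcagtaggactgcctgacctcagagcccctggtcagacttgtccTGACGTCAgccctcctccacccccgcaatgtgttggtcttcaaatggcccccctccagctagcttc
Tnfaip6: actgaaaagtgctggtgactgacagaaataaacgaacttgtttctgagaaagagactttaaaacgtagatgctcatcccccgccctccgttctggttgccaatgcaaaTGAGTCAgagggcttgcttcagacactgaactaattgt
Ptx3: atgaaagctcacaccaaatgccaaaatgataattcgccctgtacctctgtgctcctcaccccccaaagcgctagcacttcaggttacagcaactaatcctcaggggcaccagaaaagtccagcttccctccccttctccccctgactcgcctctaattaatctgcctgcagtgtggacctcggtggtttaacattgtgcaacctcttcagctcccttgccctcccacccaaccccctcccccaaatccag

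The 250 bases before the RefSeq start of Has1, Ptx3, Tnfaip6 and Cd44 were searched on both strands for the cyclic AMP response element (TGACGTCA), the AP-1 element (TGANTCA), the TATA box (TATAAA) and the NF-kB consensus. The match in Has1 began 83 bases before its RefSeq start and that in Tnfaip6 142 bases before its RefSeq start, both on the gene's strand. For these 2 genes the GENCODE annotation begins the transcript further upstream. The printed stretches of 233 (Has1) and 146 (Tnfaip6) bases stop there, so the matches lie nearer to their ends than these distances. The windows of Ptx3 and Cd44 held none of the 4 motifs. Of 32807 promoter windows of this length, 1.55% held the cyclic AMP response element, 6.75% the AP-1 element, 12.4% the TATA box and 7.25% the NF-kB consensus. A match describes letters and was not tested as a site.

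Has1, Has2, Ptx3 and Tnfaip6 were stromal genes in these libraries, and Cd44 was shared between stroma and leukocytes. FAP/fibroblast-like cells held 88.8% to 96.7% of all Has1 UMIs of a library, 80.6% to 93.7% of Has2, 89.2% to 94.3% of Ptx3 and 71.6% to 95% of Tnfaip6. Wherever 4 values follow each other, the quadriceps libraries come first and the diaphragm libraries second, and in each muscle mdx5cv stands before mdx5cv/Ccr2-/-. For Cd44 FAP/fibroblast-like cells held 27.2%, 30.9%, 35.6% and 50.1% of the UMIs, and macrophage/monocyte-like cells held 51.0%, 32.3%, 40.0% and 20.4%.

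**Figure D1:**
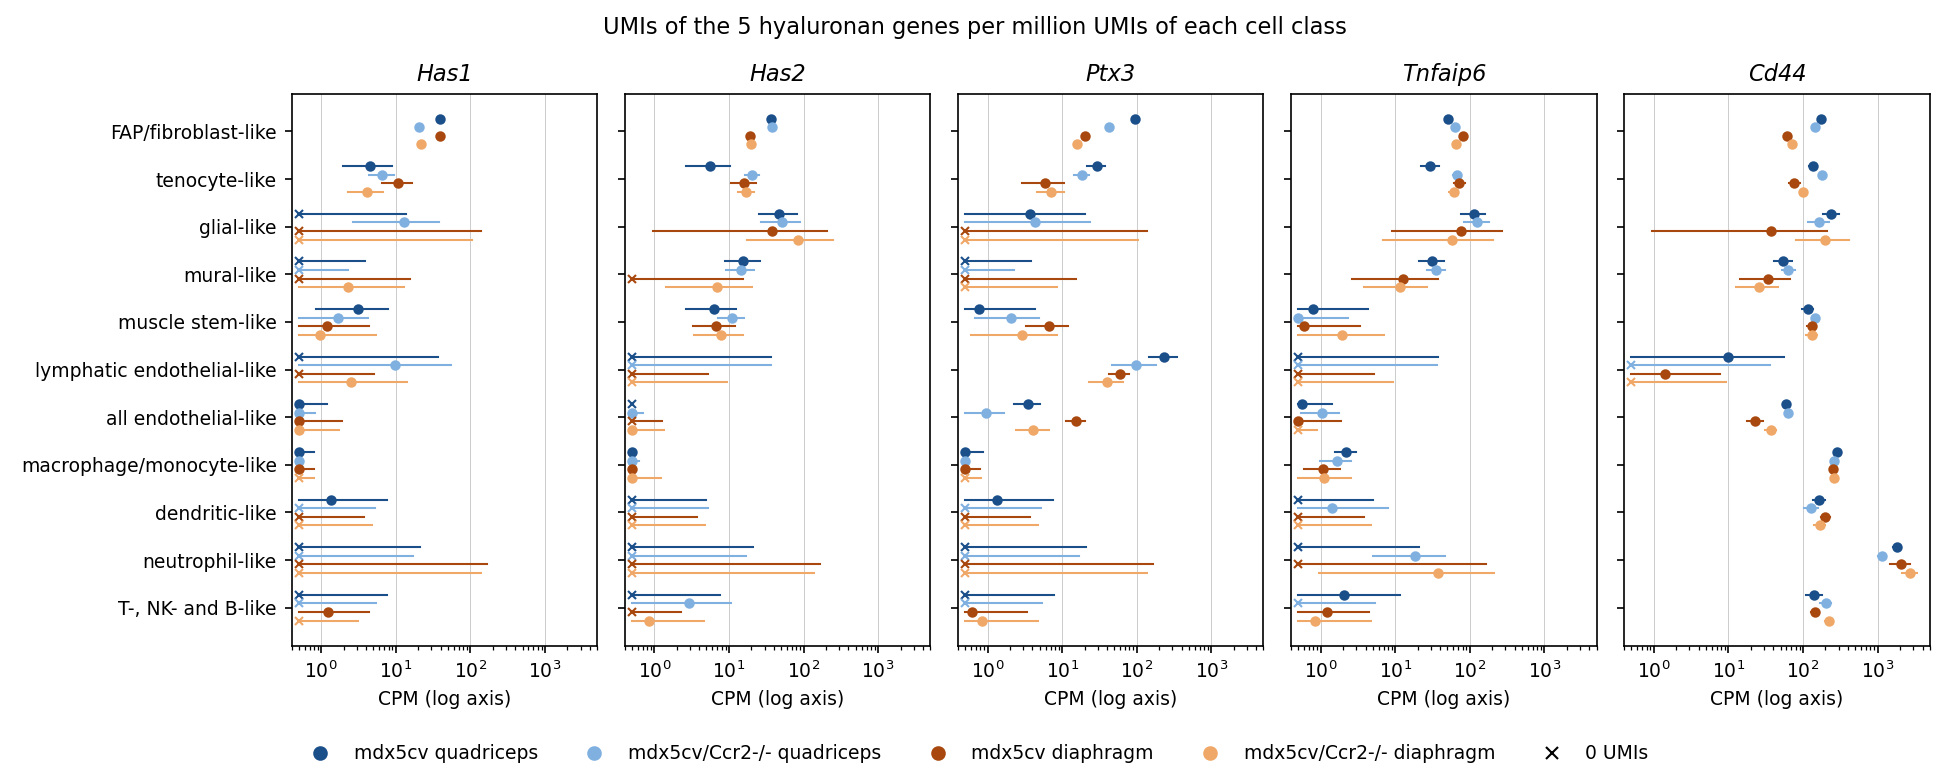
Level of each gene (CPM of the class total, log axis) in the cell classes drawn, 1 point per library with its exact 95% Poisson interval. Mesothelial-like and ungated cells are not drawn. Values under the left edge are drawn at it and crosses mark classes with 0 UMIs. Among the classes drawn, Has1, Has2, Ptx3 and Tnfaip6 are highest in stromal, glial-like or lymphatic endothelial-like cells, and Cd44 reaches 1157 to 2706 CPM in neutrophil-like cells.

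Has1 stood at 39.4 CPM in FAP/fibroblast-like cells of mdx5cv quadriceps (interval 36.4 to 42.6; 622 UMIs) and at 39.0 CPM (37.2 to 40.8; 1853 UMIs) in mdx5cv diaphragm. In the mdx5cv/Ccr2-/- libraries it stood at 20.3 CPM in quadriceps (18.4 to 22.4; 406 UMIs) and 21.5 CPM in diaphragm (20.1 to 22.9; 883 UMIs). The mdx5cv/Ccr2-/- library was thus lower than its mdx5cv counterpart in both muscles, by 1.94-fold in quadriceps (ratio 0.515, interval 0.453 to 0.585) and 1.81-fold in diaphragm (0.551, 0.508 to 0.597). The muscles did not separate for this synthase: the diaphragm over quadriceps ratio was 0.989 (0.902 to 1.08) in mdx5cv and 1.06 (0.939 to 1.19) in mdx5cv/Ccr2-/- libraries. With each cell weighted equally the quadriceps ratio was 0.739 and no longer past the fold. The class itself differed in its makeup between these libraries: cells with at least 2 of Cthrc1, Tnc, Lrrc15 and Postn were 40.7% of it in mdx5cv and 65.5% in mdx5cv/Ccr2-/- quadriceps, and 25.5% and 33.7% in diaphragm. Cells with at least 2 of Inmt, Smoc2, Gdf10 and Penk were 54.9% and 32.9% in quadriceps and 70.3% and 73.4% in diaphragm. The part of these shares in the genotype ratios was not tested, and the ratios within the gates are given below.

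Has1 was rare in the other classes given here, and the mesothelial-like cells of diaphragm (70 and 2 cells) are not among them. Tenocyte-like cells, the tendon cells of the preparation, gave 4.47, 6.58, 10.7 and 4.13 CPM from 8 to 29 UMIs. Endothelial-like, macrophage/monocyte-like and muscle stem cell-like cells gave 0 to 7 Has1 UMIs each per library. When every cell was thinned to 2000 UMIs, 4.28%, 3.43%, 5.02% and 2.70% of FAP/fibroblast-like cells had a Has1 UMI, against 17.7%, 9.96%, 10.6% and 8.81% before thinning. Pooled T-, NK- and B-like cells, which should lack the gene, gave 0 of 91, 0 of 168, 1 of 391 and 0 of 227 thinned cells. For a count of 0 the limit was taken as 3 counts, a share of 3.30% of 91 cells, 1.79% of 168 and 1.32% of 227. This approximate limit is not a Clopper-Pearson bound and lies below it. The lymphoid classes were also shallower, with medians of 3741, 3451, 3492 and 4847 UMIs. The 3.30% lies within the interval of the mdx5cv quadriceps share, so that 91 lymphoid cells were too few to set that share apart from background. The quadriceps shares of 4.28% (3.09 to 5.76) and 3.43% (2.50 to 4.58) overlapped in their intervals, while the diaphragm shares of 5.02% (4.49 to 5.60) and 2.70% (2.19 to 3.28) did not.

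Has2, the synthase with the broader developmental role, followed the muscle and not the genotype. Its level in FAP/fibroblast-like cells was 36.4 CPM (33.5 to 39.5; 574 UMIs) in mdx5cv quadriceps and 37.9 CPM (35.2 to 40.7; 757 UMIs) in mdx5cv/Ccr2-/- quadriceps. The diaphragm libraries stood at 18.9 CPM (17.7 to 20.2; 899 UMIs) and 19.9 CPM (18.6 to 21.3; 818 UMIs). Both diaphragm libraries were therefore below both quadriceps libraries, by 1.92-fold in mdx5cv (ratio 0.520, interval 0.468 to 0.578) and 1.90-fold in mdx5cv/Ccr2-/- (0.526, 0.475 to 0.581). The genotype ratios were 1.04 (0.933 to 1.16) in quadriceps and 1.05 (0.956 to 1.16) in diaphragm. The 2 synthases thus had different patterns in the same cells, Has1 lower in the mdx5cv/Ccr2-/- library of each muscle and Has2 lower in the diaphragm library of each genotype.

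**Figure D2:**
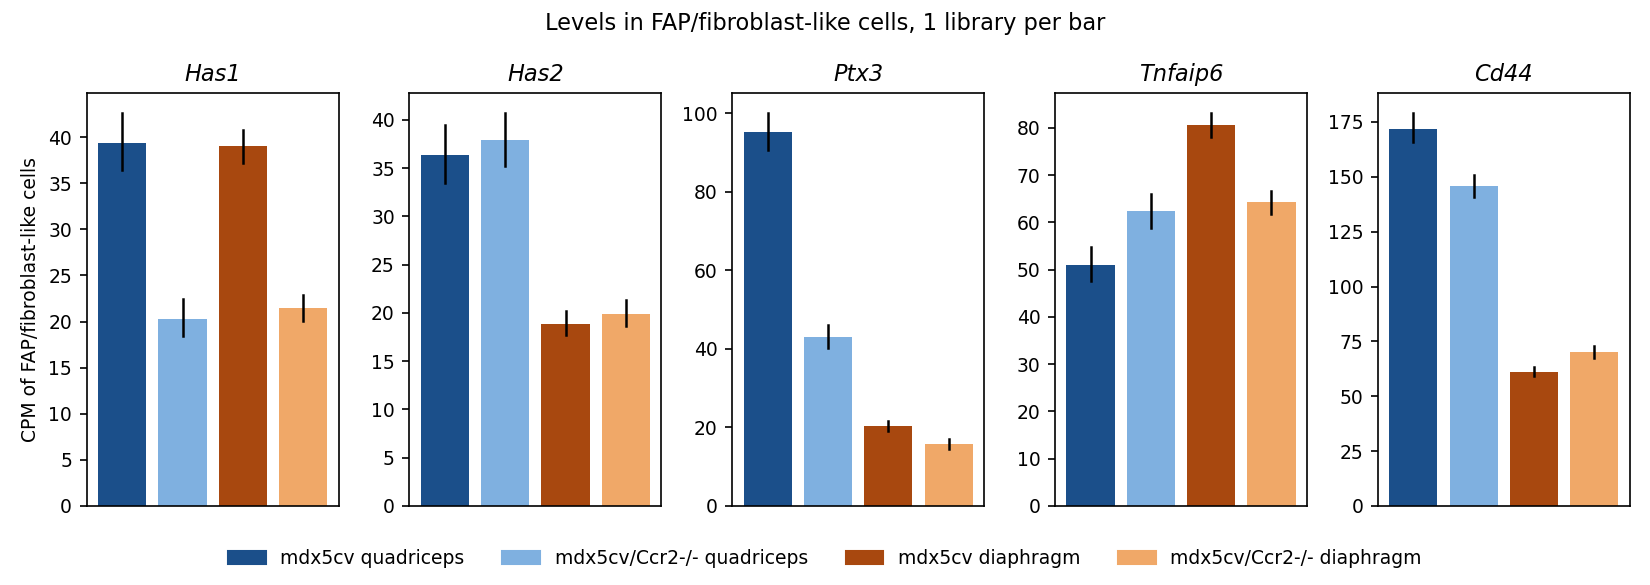
Levels of the 5 genes in FAP/fibroblast-like cells (CPM, axis from 0), 1 bar per library with its exact 95% Poisson interval. Has1 bars pair by genotype (39.4 and 39.0 against 20.3 and 21.5 CPM), and Has2 bars pair by muscle (36.4 and 37.9 against 18.9 and 19.9 CPM).

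Has2 also appeared in cells that carried little Has1. Glial-like cells, the Schwann-type cells of intramuscular nerves, gave 47.5 CPM (25.3 to 81.3; 13 UMIs in 48 cells) and 51.8 CPM (26.7 to 90.4; 12 UMIs in 51 cells) in the quadriceps libraries, where Has1 had 0 and 3 UMIs. The diaphragm libraries held 12 glial-like cells each, with 1 and 3 Has2 UMIs. Mural-like cells, the pericytes and smooth muscle of vessels, gave 15.6 and 14.3 CPM in quadriceps, and muscle stem cell-like cells 6.22, 10.9, 6.64 and 7.79 CPM from 8 to 26 UMIs. Endothelial-like cells had 0, 3, 0 and 1 Has2 UMIs. In thinned cells the FAP/fibroblast-like shares were 6.47%, 7.02%, 3.07% and 3.25%, against 0, 1, 0 and 0 of the same numbers of pooled lymphoid cells.

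Ptx3 had the widest range of the 5 genes in FAP/fibroblast-like cells. It stood at 95.3 CPM (90.5 to 100; 1503 UMIs) in the mdx5cv and 43.0 CPM (40.2 to 46.0; 860 UMIs) in the mdx5cv/Ccr2-/- library of quadriceps. In diaphragm it stood at 20.3 CPM (19.0 to 21.6; 964 UMIs) and 15.8 CPM (14.6 to 17.1; 649 UMIs). None of the 4 intervals overlapped another, but they take UMIs as independent, and Ptx3 UMIs sat in few cells, as given below. The thinned shares of diaphragm cells with a Ptx3 UMI, 1.53% (1.23 to 1.87) and 1.39% (1.03 to 1.83), overlapped in their intervals. Between genotypes it was lower by 2.21-fold in quadriceps (ratio 0.452, interval 0.415 to 0.491) and by 1.28-fold in diaphragm (0.779, 0.704 to 0.861). With each cell weighted equally the quadriceps ratio was 0.714, short of the fold, and the shift in the makeup of the class applies here as to Has1. Between muscles it was lower in diaphragm by 4.69-fold in mdx5cv (0.213, 0.196 to 0.231) and 2.72-fold in mdx5cv/Ccr2-/- (0.367, 0.331 to 0.407). Thinned shares of cells with a Ptx3 UMI were 8.77%, 4.21%, 1.53% and 1.39%, against 0 of 91, 0 of 168, 1 of 391 and 0 of 227 pooled lymphoid cells. In mdx5cv/Ccr2-/- diaphragm the limit of 3 counts is a lymphoid share of 1.32%, which the interval of the 1.39% (1.03 to 1.83) includes. The 227 lymphoid cells were thus too few to set this share apart from background. In that library 12 FAP/fibroblast-like cells had at least 10 Ptx3 UMIs each before thinning. For the 1 of 391 lymphoid cells of mdx5cv diaphragm no upper limit is given here. The 1.53% of that library was therefore not set apart from background either. There 21 FAP/fibroblast-like cells had at least 10 Ptx3 UMIs each before thinning.

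Of the vascular classes given here, Ptx3 was highest in the lymphatic one, and the venous and arterial gates are not among them. Endothelial-like cells with at least 2 of the lymphatic markers Prox1, Mmrn1 and Ccl21a held 230 CPM (146 to 345; 23 UMIs in 15 cells), 98.0 CPM (47.0 to 180; 10 UMIs in 22 cells), 58.9 CPM (42.5 to 79.6; 42 UMIs in 204 cells) and 40.3 CPM (23.0 to 65.4; 16 UMIs in 84 cells). The libraries stood in the same order as in FAP/fibroblast-like cells, on few UMIs. Endothelial-like cells outside the lymphatic, venous and arterial gates had 1, 2, 0 and 0 Ptx3 UMIs in 938, 1571, 561 and 557 cells. The lymphatic class had no Has2 or Tnfaip6 UMI and at most 1 Has1 UMI and 1 Cd44 UMI in any library. Mural-like cells had no Ptx3 UMI in any library, where 3 counts would be 1.86 to 12.6 CPM.

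Tnfaip6 differed less between libraries. Its levels in FAP/fibroblast-like cells were 51.0 CPM (47.6 to 54.7; 805 UMIs), 62.3 CPM (58.9 to 65.9; 1246 UMIs), 80.5 CPM (78.0 to 83.1; 3828 UMIs) and 64.2 CPM (61.7 to 66.7; 2638 UMIs). mdx5cv quadriceps was lowest and mdx5cv diaphragm highest, with the mdx5cv/Ccr2-/- libraries between them and overlapping each other. Between genotypes the ratio was 1.22 (1.12 to 1.34) in quadriceps and 0.797 (0.758 to 0.838) in diaphragm, opposite in direction and both short of the fold. Diaphragm over quadriceps it was 1.58 (1.46 to 1.70) in mdx5cv and 1.03 (0.962 to 1.10) in mdx5cv/Ccr2-/- libraries. The mdx5cv value was 1.49, short of the fold, when every deposited barcode was kept.

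Tnfaip6 was also found in other stromal and nerve-associated cells. Glial-like cells of the quadriceps libraries held 113 CPM (77.0 to 161; 31 UMIs) and 125 CPM (83.8 to 180; 29 UMIs), and 1 Ptx3 UMI each. Tenocyte-like cells held 29.6, 67.6, 72.3 and 60.5 CPM, with mdx5cv quadriceps again lowest, and mural-like cells of quadriceps 31.3 and 35.4 CPM. Endothelial-like cells held 0 to 13 UMIs and muscle stem cell-like cells 1 or 2 UMIs per library. In FAP/fibroblast-like cells the thinned shares were 7.62%, 10.8%, 12.1% and 10.5%, against 1, 0, 0 and 0 of the pooled lymphoid cells.

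Cd44 in FAP/fibroblast-like cells was higher in quadriceps. Its levels were 172 CPM (166 to 179; 2713 UMIs), 146 CPM (141 to 151; 2914 UMIs), 61.2 CPM (59.0 to 63.5; 2909 UMIs) and 70.1 CPM (67.5 to 72.7; 2880 UMIs). The diaphragm ratio was 0.356 (0.338 to 0.375) in mdx5cv and 0.481 (0.456 to 0.506) in mdx5cv/Ccr2-/- libraries, 2.81-fold and 2.08-fold lower. Between genotypes it was 0.848 (0.804 to 0.894) in quadriceps and 1.15 (1.09 to 1.21) in diaphragm, both short of the fold. With the UMIs of a gene capped at 5 per cell the quadriceps genotype ratio had a log2 value of 0.01. Thinned shares were 21.3%, 23.2%, 10.0% and 12.8%. The counts join all transcript variants of Cd44 and do not show which isoform was present.

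**Figure D3:**
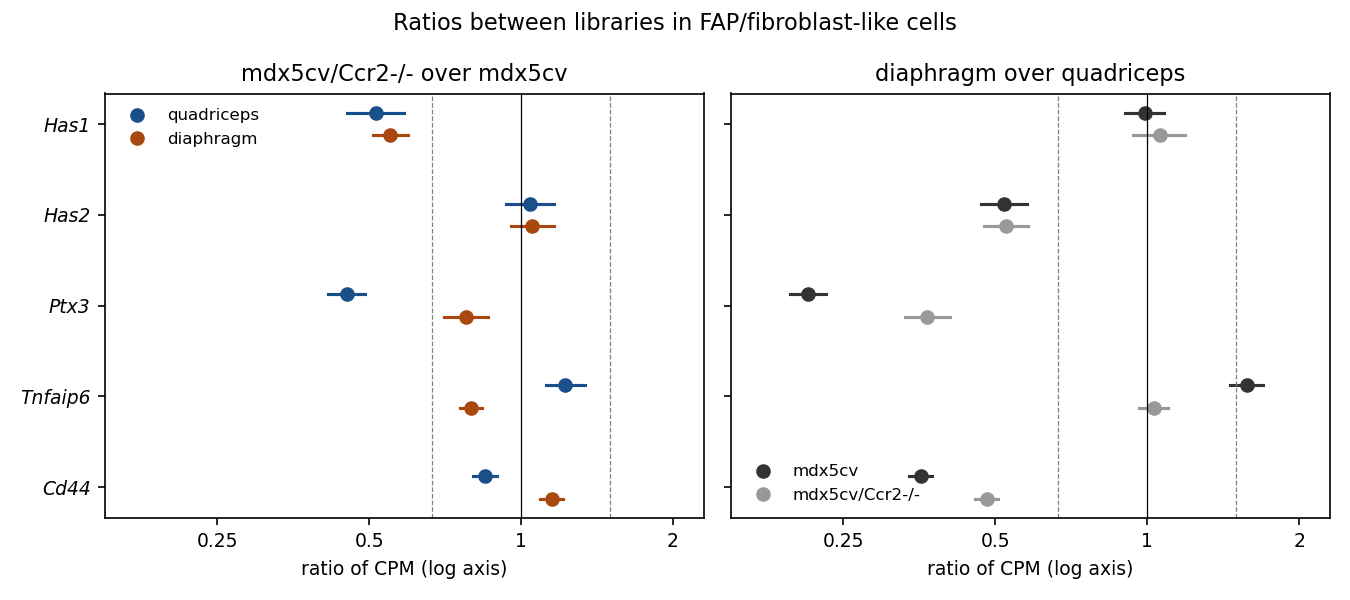
Ratios of CPM in FAP/fibroblast-like cells on a log axis, with exact conditional binomial 95% intervals; the left panel compares genotypes within each muscle and the right panel muscles within each genotype. Dashed lines mark 1.5-fold; Has1 lies left of the line in both muscles (0.515 and 0.551), and Has2, Ptx3 and Cd44 lie left of it in both genotypes in the right panel.

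Counted against all measured genes, Has1 was the member past the fold between genotypes in both muscles. In FAP/fibroblast-like cells 5813 genes were measured (a mean of at least 20 CPM and at least 50 UMIs over the libraries), and all 5 members were among them. In quadriceps 3.11% of measured genes were past the fold in the lower and 3.18% in the higher direction in the mdx5cv/Ccr2-/- library. There 2 members were lower, Has1 and Ptx3, and none higher. In diaphragm 0.740% were lower and 0.447% higher, and 1 member, Has1, was lower. Between muscles 8.14% were lower and 7.90% higher in mdx5cv diaphragm, with 3 members lower (Has2, Ptx3 and Cd44) and Tnfaip6 higher. In mdx5cv/Ccr2-/- diaphragm 7.05% were lower and 8.10% higher, with the same 3 members lower and none higher. The median log2 ratio of the 5 members was -0.23 and -0.28 between genotypes and -0.79 and -0.78 between muscles, beside 0.04, 0.03, -0.03 and -0.04 for all measured genes. The genotype and muscle contrasts use the same 4 libraries and are not independent.

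Within FAP/fibroblast-like cells the UMIs of Has1 and Ptx3 sat in few cells. The 1% of cells with most UMIs of the gene held 31.2%, 45.6%, 36.7% and 45.2% of Has1 UMIs, and 37.0%, 45.3%, 75.0% and 76.3% of Ptx3 UMIs. For Has2 the same share of cells held 17.6% to 26.4%, for Tnfaip6 20.4% to 23.2% and for Cd44 9.37% to 14.0%. Single cells reached 151, 139, 70 and 92 Ptx3 UMIs and 29 to 32 Has1 UMIs.

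Cells that carried inflammatory chemokines were compared next. FAP/fibroblast-like cells with at least 2 of Ccl7, Ccl2, Cxcl1 and Il6 were set apart from the rest, whatever other markers they had. This form of the gate was chosen after the levels had been seen, because the planned form left 32.4% to 54.9% of the cells between gates. The chemokine cells were 22.1% of FAP/fibroblast-like cells in mdx5cv quadriceps (219 cells) and 9.96% (133 cells) in mdx5cv/Ccr2-/- quadriceps, at like depth. In diaphragm they were 7.92% (501 cells) and 6.29% (232 cells), where depth differed. They were themselves deeper than the other FAP/fibroblast-like cells, with medians of 24120, 22489, 9522 and 13444.5 UMIs against 11592, 12969, 6240.5 and 9904, and a gate on detected UMIs takes deeper cells more readily.

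Has1 in the chemokine cells stood at 87.2, 60.4, 148 and 75.8 CPM, against 13.4, 12.7, 24.1 and 16.3 CPM in the other FAP/fibroblast-like cells. Ptx3 stood at 232, 163, 105 and 80.3 CPM against 20.7, 20.3, 8.63 and 9.67 CPM. The chemokine cells thus held 78.0%, 47.3%, 45.7% and 30.6% of the Has1 UMIs and 86.0%, 60.2%, 62.6% and 44.1% of the Ptx3 UMIs of the class. Tnfaip6 was also higher in them, at 73.2, 109, 198 and 132 CPM against 39.0, 53.5, 64.4 and 57.7 CPM, as was Cd44, at 285, 223, 116 and 136 CPM against 111, 131, 53.6 and 63.8 CPM. Has2 stood at 45.5 and 63.6 CPM against 31.4 and 33.0 CPM in quadriceps, and at 42.5 and 41.8 CPM against 15.7 and 17.8 CPM in diaphragm. In cells thinned to equal depth the shares with a Has1 UMI were 11.1%, 9.92%, 23.5% and 11.8% against 2.29%, 2.69%, 3.39% and 2.08%, and all 4 libraries kept the order.

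**Figure D4:**
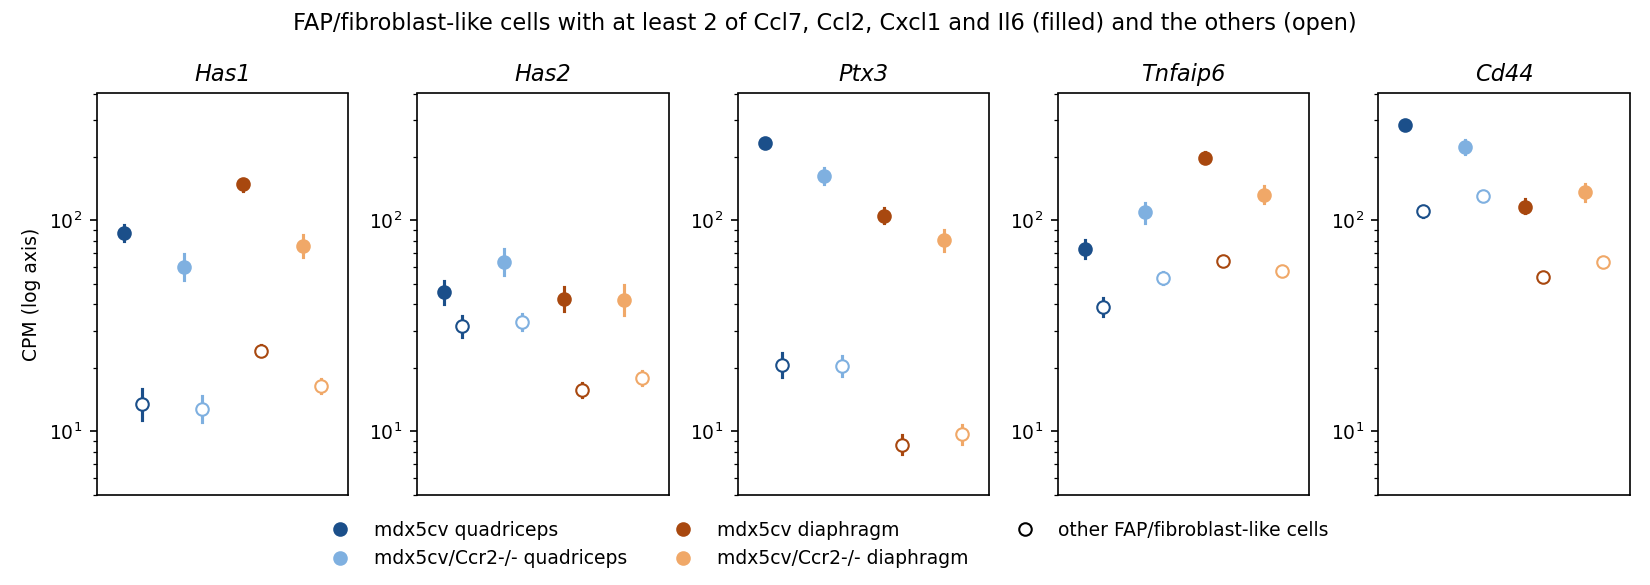
Levels (CPM, log axis) in FAP/fibroblast-like cells with at least 2 of Ccl7, Ccl2, Cxcl1 and Il6 (filled points) and in the other FAP/fibroblast-like cells (open points), 1 pair per library with exact 95% Poisson intervals. Filled points lie above open points for every gene and library; for Ptx3 the filled points span 80.3 to 232 CPM and the open points 8.63 to 20.7 CPM.

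The genotype ratios were then read on each side of the gates. The chemokine gate rests on genes that differed in the same contrast: Ccl2 stood at 585 CPM in mdx5cv and 183 CPM in mdx5cv/Ccr2-/- quadriceps, Ccl7 at 357 and 115 CPM and Cxcl1 at 104 and 15 CPM. Its ratios are therefore a description and do not locate the difference. In quadriceps chemokine cells the mdx5cv/Ccr2-/- over mdx5cv ratio was 0.693 (0.583 to 0.821) for Has1 and 0.702 (0.633 to 0.778) for Ptx3, both short of the fold. Among the other FAP/fibroblast-like cells of quadriceps it was 0.949 (0.762 to 1.18) for Has1 and 0.985 (0.827 to 1.17) for Ptx3. In diaphragm Has1 was lower on both sides, at 0.513 (0.445 to 0.589) in chemokine cells and 0.678 (0.612 to 0.750) in the others. Ptx3 in diaphragm was 0.762 (0.660 to 0.878) in chemokine cells and 1.12 (0.966 to 1.30) in the others.

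Splits by other states also gave quadriceps ratios that differed between the sides of a gate. The shares of the Cthrc1 and Inmt gates differed between the quadriceps libraries, as given above. These ratios too are therefore a description and do not locate the difference. Among cells with at least 2 of Cthrc1, Tnc, Lrrc15 and Postn, whatever other gates they met, the genotype ratio was 0.388 (0.329 to 0.458) for Has1 and 0.295 (0.266 to 0.326) for Ptx3. Outside that gate it was 1.06 (0.864 to 1.30) for Has1 and 1.29 (1.10 to 1.51) for Ptx3. Outside the gate of Pi16, Dpp4, Sema3c and Cd55 it was 0.390 (0.336 to 0.453) for Has1 and 0.357 (0.323 to 0.395) for Ptx3, against 1.23 (0.950 to 1.58) and 0.906 (0.773 to 1.06) inside. Inside the gate of Inmt, Smoc2, Gdf10 and Penk the quadriceps ratio was 0.648 (0.516 to 0.811) for Has1 and 0.822 (0.722 to 0.935) for Ptx3. Outside that gate it was 0.425 (0.363 to 0.496) and 0.304 (0.271 to 0.340), so that both genes were lower on both sides. In diaphragm the Has1 ratio was 0.545 inside and 0.568 outside the Cthrc1 gate, and 0.517 inside and 0.538 outside the Pi16 gate. For the Inmt gate it was 0.585 inside and 0.503 outside, so that Has1 was lower on every side of these gates there. Ptx3 in diaphragm was 1.37 (1.15 to 1.64) inside and 0.603 (0.530 to 0.686) outside the Cthrc1 gate.

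Has1, alike between muscles over the whole class, was higher in mdx5cv diaphragm than in mdx5cv quadriceps on each side of the chemokine gate, with ratios of 1.70 (1.51 to 1.90) in chemokine cells and 1.80 (1.5 to 2.16) in the others. In mdx5cv/Ccr2-/- libraries these ratios were 1.25 (1.04 to 1.52) and 1.28 (1.10 to 1.51). The share of chemokine cells and Ccl2 (585 and 152 CPM in mdx5cv) also differed between muscles, so these ratios are a description. In mdx5cv no other gate had Has1 higher in diaphragm on both sides. The ratio was 1.78 inside and 0.716 outside the Pi16 gate. For the Cthrc1 gate it was 0.834 and 1.09, and for the Inmt gate 1.15 and 0.959. In mdx5cv/Ccr2-/- libraries it was 0.748 and 0.986, 1.17 and 0.583, and 1.04 and 1.14. The muscle difference of Ptx3 was present on both sides of the chemokine gate. The other cells stood at 20.7 and 20.3 CPM in quadriceps and 8.63 and 9.67 CPM in diaphragm.

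Has2 also differed between other states of the FAP/fibroblast-like cells. In the planned gates, which take only cells that meet 1 gate, its level was 65.3, 98.4, 35.2 and 47.8 CPM in cells with at least 2 of Pi16, Dpp4, Sema3c and Cd55, markers of the adventitial progenitor state. It was 14.4, 19.6, 10.6 and 8.91 CPM in cells with at least 2 of Inmt, Smoc2, Gdf10 and Penk. It was 35.6, 31.2, 19.2 and 22.4 CPM in cells with at least 2 of Cthrc1, Tnc, Lrrc15 and Postn, genes of matrix-producing fibroblasts. The quadriceps library was above the diaphragm library of the same genotype in each of these 3 gates. The Pi16 and Dpp4 cells numbered 54, 55, 394 and 212, and the planned chemokine gate held 11 to 36 cells and 3 to 22 Has2 UMIs. When cells could meet several gates, Has2 in the Pi16 and Dpp4 cells was 40.0, 42.2, 22.8 and 24.1 CPM against 34.9, 36.9, 16.1 and 15.1 CPM outside, a smaller gap whose intervals overlapped in quadriceps and lay apart in diaphragm. For the Inmt gate these values were 31.4, 37.8, 14.9 and 16.1 CPM inside against 41.5, 37.9, 27.1 and 29.1 CPM outside, with no difference in mdx5cv/Ccr2-/- quadriceps beyond the intervals. In diaphragm the CPM gap across the chemokine gate, given above, was the widest of the 4 gates. In thinned cells the shares with a Has2 UMI across that gate were 6.29% against 2.78% in mdx5cv diaphragm. In mdx5cv/Ccr2-/- diaphragm they were 3.93% against 3.21%, a narrower gap than the 4.06% against 2.46% across the Pi16 gate.

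For several pairs, thinned cells with a UMI of 1 member had another member more often than cells without, though in a minority of cells. Among cells with a Has1 UMI, 19.5% (8 of 41), 15.9% (7 of 44), 9.80% (30 of 306) and 11.3% (11 of 97) also had Ptx3, against 8.29%, 3.80%, 1.09% and 1.11% of cells without Has1. In mdx5cv quadriceps the intervals of 8.82 to 34.9 and 6.59 to 10.3 overlapped, and in the other 3 libraries they lay apart. Tnfaip6 was found in 17.1%, 29.5%, 30.4% and 24.7% of cells with Has1, against 7.20%, 10.2%, 11.1% and 10.1% of those without. In mdx5cv quadriceps these intervals too overlapped, at 7.15 to 32.1 and 5.61 to 9.07. Among cells with Ptx3, Tnfaip6 was found in 39.8% and 40.0% in diaphragm, against 11.7% and 10.1% of cells without. In mdx5cv quadriceps that pair was at 8.33% (3.42 to 16.4) against 7.55%, and no difference was detectable at this depth. In mdx5cv/Ccr2-/- quadriceps it was at 20.4% (10.6 to 33.5) against 10.4% (8.77 to 12.3), again with overlap. Cd44 accompanied Ptx3 in quadriceps, in 45.2% and 42.6% of cells with Ptx3 against 19.0% and 22.4% of those without. Has2 was found in 5.88% (3.52 to 9.14) and 10.3% (5.06 to 18.1) of diaphragm cells with Has1, against 2.92% (2.50 to 3.39) and 3.06% (2.51 to 3.68) of those without, so that the synthases also met in the same cells. With Ptx3, Has2 was found in 9.68% and 12% of diaphragm cells, against 2.97% and 3.13% without, and these intervals lay apart too. In quadriceps the Has2 intervals overlapped for both. These are shares of cells within 1 library each, and such cells are not replicates.

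**Figure D5:**
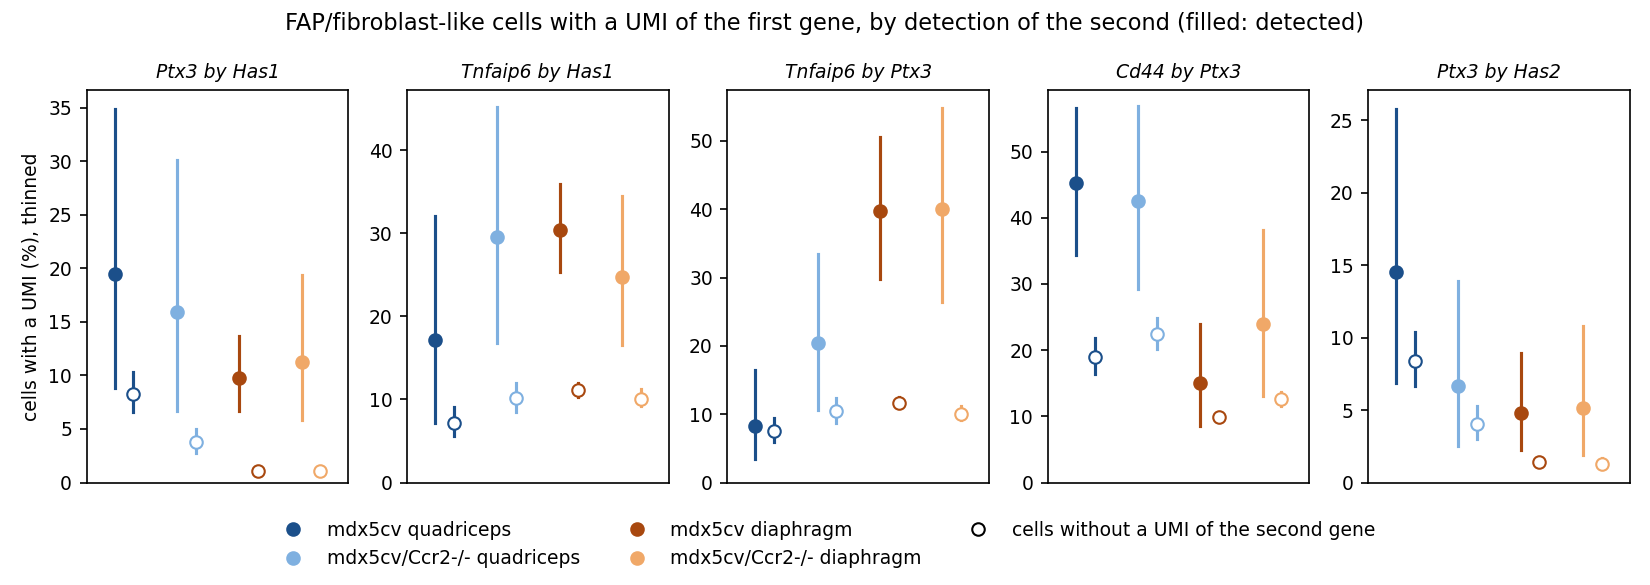
Share of FAP/fibroblast-like cells with a UMI of the first gene (%, cells thinned to 2000 UMIs, axis from 0) among cells with (filled) and without (open) a UMI of the second gene, 1 pair per library with exact 95% binomial intervals. Ptx3 is more often found where Has1 is, as in mdx5cv diaphragm with 9.80% against 1.09%.

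Other genes differed beside the members in FAP/fibroblast-like cells, and their part in the differences was not tested. Of 13 immediate early and heat shock genes that dissociation can raise, 12 were past the fold and higher in diaphragm in each genotype, at median log2 ratios of 1.94 (mdx5cv) and 1.44 (mdx5cv/Ccr2-/-). Of all measured genes 7.90% and 8.10% were higher in these contrasts. The largest differences in mdx5cv were 11.1-fold for Atf3, 7.59-fold for Fos and 5.17-fold for Nr4a1. Between genotypes 3 of the 13 were lower in mdx5cv/Ccr2-/- quadriceps and 7 in mdx5cv/Ccr2-/- diaphragm, and none was higher. Of all measured genes 3.11% were lower in quadriceps and 0.740% in diaphragm. Thinned cells with Has1 carried a mean of 10.7, 10.7, 33.4 and 24.8 UMIs of this list, against 4.03, 3.37, 15.9 and 11.5 in cells without Has1. Of 7 measured inflammatory genes of a list of 11, 6 were lower in mdx5cv/Ccr2-/- quadriceps, beside 3.11% of all measured genes. Their median log2 ratio was -1.59 over the 7. The neutrophil attractants Cxcl5 and Cxcl1 had ratios of 0.0263 and 0.143 there, and Ccl2 0.313. In diaphragm 1 of the 7, Cxcl1, was lower past the fold, with a ratio of 0.439, beside 0.740% of all measured genes. Thinned cells with Has1 carried a mean of 9.78, 4.39, 4.64 and 4.74 UMIs of the inflammatory list, against 2.21, 0.672, 0.898 and 0.754 in cells without.

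In immune cells Cd44 was the member with high counts, and the other 4 had at most 39 UMIs in any immune class of a library. Neutrophil-like cells held the highest level of any class, at 1814 CPM (1621 to 2023; 321 UMIs in 64 cells), 1157 CPM (1019 to 1309; 252 UMIs in 65 cells), 2030 CPM (1481 to 2717; 45 UMIs in 12 cells) and 2706 CPM (2117 to 3407; 72 UMIs in 12 cells). The mdx5cv/Ccr2-/- library was lower than mdx5cv in quadriceps, and the diaphragm intervals overlapped. T-like cells held 205, 268, 235 and 288 CPM, NK-like cells 89.3 to 214 CPM and B-like cells 13.4 to 77.7 CPM.

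Macrophage/monocyte-like cells held Cd44 at 283 CPM (276 to 291), 262 CPM (253 to 272), 253 CPM (245 to 262) and 258 CPM (243 to 273). The ratios were 0.925 (0.884 to 0.968) and 1.02 (0.950 to 1.09) between genotypes and 0.895 (0.856 to 0.935) and 0.983 (0.918 to 1.05) between muscles, none past the fold. Of 5421 measured genes in this class, 3.89% were higher and 3.71% lower past the fold between genotypes in quadriceps, and 5.11% higher and 4.10% lower in diaphragm. Between muscles 4.81% were higher and 2.43% lower in mdx5cv, and 7.93% higher and 6.99% lower in mdx5cv/Ccr2-/- libraries. Within the class the monocyte-like cells, with at least 2 of Ly6c2, Chil3, Plac8 and Hp, held 479, 525, 453 and 301 CPM. They numbered 243, 15, 96 and 7, or 17.6%, 1.78%, 5.57% and 1.75% of the class. Macrophage-like cells with the C1q genes and 2 resident markers (Folr2, Cd163, Cbr2, Timd4) held 264, 225, 184 and 203 CPM, and the other C1q macrophage-like cells 240, 260, 256 and 296 CPM. The monocyte-like level was the highest of the 3 in each library, though in mdx5cv/Ccr2-/- diaphragm its interval of 181 to 470 covered the other values.

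Other vessel and muscle cells held intermediate amounts of Cd44. Endothelial-like cells stood at 59.1, 63.2, 22.8 and 36.8 CPM, lower in diaphragm. The lymphatic subset, with at most 1 Cd44 UMI per library, was 1.11% and 0.954% of them in quadriceps and 22.5% and 9.81% in diaphragm. Endothelial-like cells outside the lymphatic, venous and arterial gates stood at 67.7, 71.3, 34.4 and 47.7 CPM, again lower in diaphragm. Tenocyte-like cells stood at 137, 182, 76.6 and 101 CPM, also lower in diaphragm. Muscle stem cell-like cells stood at 115, 145, 131 and 130 CPM, with overlapping intervals in all 4 libraries.

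Of 34 other hyaluronan genes, 14 were measured in FAP/fibroblast-like cells, among them 7 of 9 in the supply of sugar precursors. Between genotypes 1 of the 14 was past the fold in quadriceps, the cell-surface hyaluronidase Cemip2 (ratio 1.60), and none in diaphragm. Of all measured genes 3.18% were higher in that quadriceps contrast. Between muscles 1 was higher and 2 were lower in mdx5cv, beside 7.90% and 8.14% of all measured genes. In mdx5cv/Ccr2-/- libraries 2 were higher and 3 lower, beside 8.10% and 7.05% of all measured genes. Among the 14, Vcan, the hyaluronan-binding proteoglycan versican, stood at 398 and 402 CPM in quadriceps and at 242 and 238 CPM in diaphragm, with ratios of 0.609 and 0.593. Gnpnat1, an enzyme of the amino sugar supply, was lower in diaphragm too, with ratios of 0.592 and 0.652. In mdx5cv/Ccr2-/- diaphragm Gfpt2 (1.62) and Cemip2 (0.486) were also past the fold against quadriceps. Ugdh, which makes the glucuronic acid precursor, stood at 96.8, 68.9, 72.3 and 68.6 CPM, and Itih5, an inter-alpha-inhibitor heavy chain family member, at 622, 518, 600 and 584 CPM.

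Has3, the third synthase, was not measured in FAP/fibroblast-like cells by this rule, with 159, 290, 57 and 61 Has3 UMIs in all cells of the 4 libraries, of which endothelial-like cells held 143, 267, 37 and 49. Itih1 had no UMI in any library, and Itih2 had 161, 216, 528 and 495 UMIs over all cells.

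In macrophage/monocyte-like cells 10 of the 34 were measured. Between genotypes 1 was higher and 1 lower in quadriceps, beside 3.89% and 3.71% of all measured genes of the class. In diaphragm 2 were higher and 1 lower, beside 5.11% and 4.10%. Between muscles 2 were higher and 1 lower in mdx5cv, beside 4.81% and 2.43%. In mdx5cv/Ccr2-/- libraries 3 were higher and 1 lower, beside 7.93% and 6.99%. Vcan stood at 79.3 and 4.48 CPM in mdx5cv and mdx5cv/Ccr2-/- quadriceps, a ratio of 0.0565, and its ratio in diaphragm was 0.171. Lyve1, a hyaluronan receptor of lymphatic vessels and some resident macrophages, stood at 21.5, 41.1, 35.3 and 136 CPM, with ratios of 1.92 and 3.85 between genotypes and 1.64 and 3.30 between muscles. Stab1, a scavenger receptor, stood at 307, 316, 302 and 605 CPM, a ratio of 2.00 in diaphragm. Tlr2, an innate receptor, was higher in diaphragm, with ratios of 1.98 and 1.65. The share of monocyte-like cells in the class, given above, moved with Vcan, and the share with resident markers was 22.9%, 25.7%, 20.4% and 49.8%; their part in these values was not tested.

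The genes whose levels were most like each member over 38 profiles, each a class in a library with at least 50 cells, were named by Pearson's r of log2(CPM + 5). For Has1 they were Nova1 (0.921), Gfpt2 (0.909) and Gm10115 (0.908), and Gfpt2, an enzyme that feeds the amino sugar supply, is itself on the hyaluronan list. For Has2 they were Col5a3 (0.933), Dact1 (0.919) and Galnt17 (0.913). For Ptx3 they were Tspan11 (0.869), the matrix protease Mmp3 (0.861) and Bmper (0.857). For Tnfaip6 they were Col16a1 (0.942), Scn7a (0.939) and Fam171b (0.920), and for Cd44 Cklf (0.794), H2afj (0.778) and Adam8 (0.776). The profiles share libraries, and 11554 genes were compared, so the values describe likeness and carry no test.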

How the data were processed

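The authors deposited raw UMI counts, with 1 filtered matrix per library. Per the file headers they ran Cell Ranger 6.1.2. The submitters' processing notes name build mm10. Sources used here do not say which gene annotation was counted, whether introns were included or how barcodes were called as cells. Totals were 56399477 and 66330555 UMIs (quadriceps, mdx5cv then mdx5cv/Ccr2-/-) and 92189580 and 67356144 UMIs (diaphragm), in 5839, 7492, 13175 and 7048 barcodes.

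Cells needed 500 UMIs, 300 genes and no more than 15% of UMIs from mitochondrial genes. The highest Scrublet scores (scanpy 1.11.5) were removed as doublets at 0.8% per 1000 barcodes, 273, 449, 1389 and 397 barcodes. A cell joined the class with most of its 6 markers present, given at least 3 and at least 2 more than any other class, and no member was a marker. UMIs were summed by class and library in Python 3.11.15 (numpy 2.4.6, pandas 2.3.3, scipy 1.17.1; figures with matplotlib 3.10.9). Ratios are of CPM, and log2 ratios use a pseudocount of 5 CPM. Interval coverage was tested on simulated Poisson counts only. Such counts lack the gathering of UMIs in few cells seen for Has1 and Ptx3, so the intervals were not checked for it. For shares, each cell was thinned to 2000 UMIs, leaving out 31, 53, 234 and 89 shallower FAP/fibroblast-like cells.

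The members, gene lists and markers were chosen with earlier results of these data known. Members are always named. Other hyaluronan genes were given values where past 1.5-fold in the same direction in both muscles or both genotypes, and Ugdh, Itih5, Itih1, Itih2, Has3, Stab1, Cemip2 and Gfpt2 were added after their values were seen. For the stress and inflammatory lists the 3 genes of largest difference were named, and for likeness the 3 of highest r. There were 10 alternatives, whose effect is given at the end. Protein sequences were not analysed here, and 1 gene of the hyaluronan list is not reported here.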

Additional observations from a re-analysis of the deposited data

Results flagged for a closer look

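Tnfaip6 in FAP/fibroblast-like cells differed between genotypes in opposite directions in the 2 muscles: the ratio of mdx5cv/Ccr2-/- to mdx5cv was 1.22 in quadriceps and 0.797 in diaphragm. Cd44 in the same cells had ratios of 0.848 in quadriceps and 1.15 in diaphragm, again on opposite sides of 1. With UMIs capped at 5 per cell the quadriceps log2 ratio of Cd44 was 0.01, and the opposite direction was lost. The counting intervals of each pair lie apart, but each group is 1 library, and the difference between the muscles was not tested.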

How the results depend on the processing

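Over 10 alternatives (cell filter, doublets, scaling total, gates, weighting, cap and pseudocount), 215 of 240 log2 ratios of single genes stayed within the counting interval of the reported value, and none of the called values changed sign. Of 24 such results, 21 kept their side of 1.5-fold throughout, and the others were Has1 and Ptx3 between genotypes in quadriceps and Tnfaip6 between muscles in mdx5cv. Weighting cells equally gave log2 ratios between genotypes in quadriceps FAP/fibroblast-like cells of -0.37 for Has1, -0.45 for Ptx3 and -0.14 for both Cd44 and the members' median, and of -0.40 for Tnfaip6 in diaphragm. Between muscles it gave 0.13 and -0.25 for Has1, -1.58 and -1.55 for Ptx3, and 0.73 and -0.06 for Tnfaip6 (mdx5cv, then mdx5cv/Ccr2-/-). Cd44 in macrophage/monocyte-like cells became -0.25 between genotypes in quadriceps and -0.33 between muscles in mdx5cv. Capping a gene at 5 UMIs per cell gave, between genotypes in quadriceps, -0.75 for Ptx3 and 0.01 for both Cd44 and the median. Between muscles it gave 0.20 for Has1, -1.57 for Ptx3 and -0.92 for Cd44 in mdx5cv, and -0.77 for Cd44 in mdx5cv/Ccr2-/- libraries. For Cd44 in macrophage/monocyte-like cells it gave -0.15 between genotypes in diaphragm, and 0.11 and 0.09 between muscles. A pseudocount of 1 CPM gave -2.18 and -1.39 for Ptx3 between muscles, since it shrinks low levels less. Cd44 between genotypes in diaphragm was 0.10 both without doublet removal and with every deposited barcode. Beyond the pseudocount, the cause of these shifts was not tested. No paired analysis was possible because each group is 1 library. Counting limits the classes of under 100 cells most.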
